A study of Fagopyrum tataricum with 12 samples.

Results

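The unstressed transcriptome described here is that of 3 control libraries among the 12 libraries of the series, chosen by their labels: control at 0 h, in Hoagland's nutrient solution. They were made from leaf and stem of Tartary buckwheat (Fagopyrum tataricum) seedlings of cultivar Dingku1, a pseudocereal grown for flavonol-rich grain. The seedlings were raised hydroponically under long days to the 2-leaf stage. The other 9 libraries came from the same cultivar, organs and stage after 2, 4 or 8 h in 20% PEG-6000, a polymer that withholds water from roots, with 3 libraries each. Leaf and stem went into the same libraries, so no value here belongs to either organ alone, and nothing in the labels ties each library to plants of its own. P-values of the gene tests therefore measure the spread between these libraries, which may be technical. The permutation tests of families pool the 3 PEG times, so their spread also holds the differences between those times.

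The 3 control libraries held 37004158, 37395814 and 37301468 counted reads over 26750 genes, against 30468104 to 36709736 in the 9 PEG libraries. Levels are the deposited FPKM, which divide counts by coding length and library total and so allow genes to be compared with each other. The transcript share of a gene or family is its FPKM as a percentage of the library's summed FPKM. Gene identifiers are printed without their common prefix evm.TU., and the part before the point gives the chromosome (Ft1 to Ft8). Families were made from the deposited gene descriptions alone.

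In a green leaf cell, most nuclear messages of the chloroplast encode proteins that capture light, move electrons or fix carbon dioxide, and these proteins are imported into the plastid after translation in the cytosol. Rubisco, the enzyme that fixes carbon dioxide, joins a small subunit encoded in the nucleus to a large subunit encoded in the plastid. Plant gene families are large, with tandem and genome-wide duplicates, and often 1 or a few copies give most of the message in a given organ. Tartary buckwheat is known for rutin, a glycoside of the flavonol quercetin, which is built from phenylalanine through the phenylpropanoid and flavonoid pathways.

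The label of the samples was set against markers. All 8 mesophyll markers were above 10 FPKM in every control library, and their 33 genes summed to between 113819 and 121677 FPKM, or 10.8% of the mRNA. Of 8 epidermal markers, 7 had a gene of at least 1 FPKM in all 3 libraries, as did 12 of their 19 genes. KCS10, which elongates fatty acids for the cuticle, had 304 ± 4.54 FPKM, KCS6 had 84.2 ± 5.58 FPKM and the 2 GL2 genes together had 38.7 ± 1.74 FPKM (SD, n = 3). Lower were CER1 with 19.1 ± 1.98 FPKM, LTPG1 with 4.61 ± 0.0909 FPKM and WIN1 with 0.214 ± 0.0962 FPKM (highest gene of each). The phloem protein gene PP2A1 reached 461 ± 19.4 FPKM, but the sucrose loader SUC2 only 9.46 ± 0.553 FPKM and the highest of 7 SEOB genes 2.33 ± 0.352 FPKM. Another gene, described as a sucrose transport protein (Ft3.2800) and not on the marker list, had 237 ± 9.38 FPKM. Of 10 xylem markers, 3 had a gene of at least 1 FPKM in all 3 libraries, as did 5 of their 20 genes. The secondary-wall cellulose synthases CESA4, CESA7 and CESA8 stood at 1.22, 0.604 and 0.833 FPKM (highest gene of each), while the xylem protease gene XCP1 had 139 ± 8.24 FPKM. Of 8 markers of guard cells and the stomatal lineage, 4 had a gene of at least 1 FPKM in all 3 libraries, as did 6 of their 12 genes. Guard cell genes KAT1 (49.5 ± 1.62 FPKM) and MYB60 (23.9 ± 0.844 FPKM) were present, and SLAC1 was lower (2.83 ± 0.620 FPKM). Of the stomatal lineage genes, both FAMA genes were expressed (11.8 ± 0.605 FPKM together), whereas SPCH, MUTE, EPF1 and TMM each averaged below 1 FPKM. Of 9 markers of the shoot meristem and dividing cells, 7 had a gene of at least 1 FPKM in all 3 libraries, as did 20 of their 36 genes. The highest CYCB1 gene had 125 ± 1.24 FPKM, but the highest CDKB gene 19.7 ± 0.651 FPKM and the highest of 10 CYCA genes 3.22 ± 0.272 FPKM. The 14 histone H4 genes together had 481 ± 3.73 FPKM. Of the meristem genes, the highest CLV1 gene had 20.7 ± 3.52 FPKM and KNAT1 7.99 ± 0.777 FPKM. Lower were STM with 2.22 ± 0.422 FPKM, WUS with 0.876 ± 0.139 FPKM and the highest CUC2 gene with 0.549 ± 0.212 FPKM.

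Markers of organs outside the label were mixed: 7 of 18 root genes, 6 of 22 seed and embryo genes and 2 of 12 flower and pollen genes reached 1 FPKM in all 3 control libraries. That share was 69.7% over all genes and 73.0% over described genes. By marker, 5 of the 8 root markers found had such a gene, against 3 of 10 xylem markers. The root hair genes EXPA7 and RHD6 gave 3 and 7 counts over all 3 control libraries, and the 5 nitrate transporter genes of the NRT2 type summed to 0.601 ± 0.142 FPKM. Other genes of the root list were not low: a phosphate transporter of the PHT1 type (Ft7.750) had 84.8 ± 2.45 FPKM, SCR 14.6 ± 0.527 FPKM and SHR 10.9 ± 0.139 FPKM. The seed regulators ABI3 and LEC1 had no count, but storage protein genes were expressed, with 30.8 ± 1.90 FPKM for a legumin or globulin gene (Ft8.1805) and 9.72 ± 1.51 FPKM for a vicilin gene (Ft7.2752). The floral gene AG had 0.413 ± 0.106 FPKM, an AP1-type gene (Ft5.524) 3.61 ± 0.299 FPKM and a gene described as pollen-specific (Ft7.1597) 18.01 ± 1.52 FPKM. The senescence protease gene SAG12 had 18.1 ± 0.167 FPKM (highest gene), and SGR1, also on the senescence list, had 32.3 ± 1.26 FPKM. In such bulk libraries, fewer cells of a type and less RNA per cell cannot be told apart.

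Of the 26750 genes, 18651 (69.7%) had at least 1 FPKM in all 3 control libraries and are called expressed here. Another 6575 genes were counted but stayed below this level in at least 1 library, and they held only 0.195% of the mRNA. The remaining 1524 genes (5.70%) had no count in any control library. Expressed genes were spread over all 8 chromosomes, from 65.8% of the genes on chromosome 4 to 78.0% on chromosome 5. Chromosome 5 holds 10.7% of the genes and gave 16.8% of the mRNA. Chromosome 8 holds 12.6% of the genes and gave 15.8% of it. Chromosomes 5 and 8 each carry 8 of the 30 most abundant genes. Among the 204 genes on unplaced scaffolds, 6 were expressed.

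The mRNA was concentrated in few genes. The 633 most abundant genes made up 50% of the transcript share (641, 634 and 622 in the 3 libraries taken singly), and 7193 genes made up 90%. The 10 most abundant genes held 9.96% of the mRNA, the top 30 held 16.7% and the top 100 held 27.6%. Levels of 1000 FPKM or more were reached by 112 genes, which gave 28.7% of the mRNA. A far larger group of 10026 genes lay between 10 and 100 FPKM and gave 29.6%. Abundant genes were short: the median coding length was 666 bases at 1000 FPKM or more, 1125 bases between 10 and 100 FPKM and 1203 bases between 1 and 10 FPKM. By counted reads, which long genes supply more of, the number of genes needed for 50% was 1035.

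**Figure D1:**
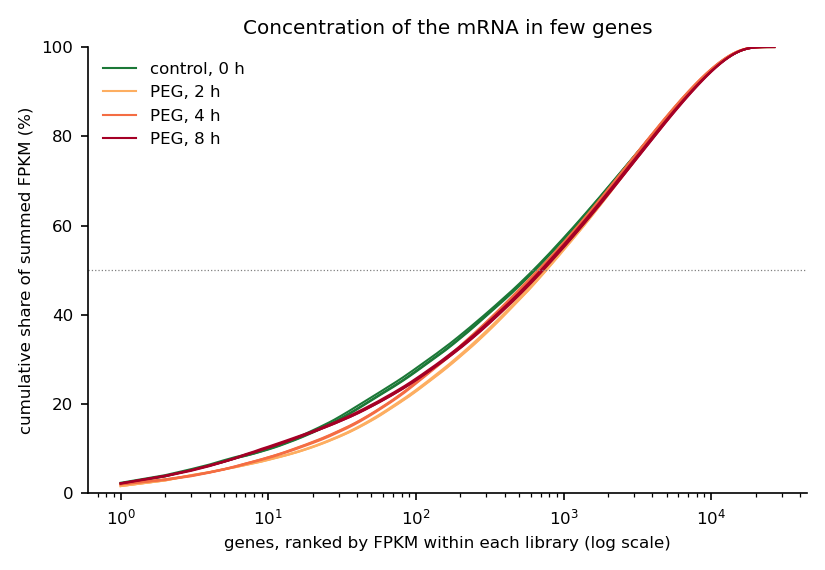
Cumulative transcript share (percentage of summed FPKM, vertical axis) against the number of genes ranked by FPKM within each library (horizontal axis, log scale), 1 line per library coloured by group; the dotted line marks 50%. The 3 control lines cross it at 641, 634 and 622 genes, and the PEG lines at 742 to 765 (2 h), 670 to 684 (4 h) and 701 to 727 (8 h).

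The head of the list was photosynthesis. Of the 30 most abundant genes, 24 belong to the photosynthesis families. Of the top 100, 50 do, counting ATPF2 (Ft7.4403) of the plastid ATP synthase, a family added after abundant genes were seen. The 2 genes for the Rubisco small subunit ranked first and second. RBCS6 (Ft5.2621) had 24026, 24182 and 25553 FPKM, 2.27% of the mRNA, and its neighbour RBCS6 (Ft5.2620) had 17287, 17844 and 18422 FPKM, 1.65%. All 3 values of the first lay above all 3 of the second. The Rubisco activase gene RCA1 (Ft5.2681), whose product frees Rubisco of inhibiting sugar phosphates, had 9568, 9786 and 10282 FPKM. CAB36 (Ft8.3607), an antenna protein gene of the light-harvesting complexes, had 10552, 10563 and 11190 FPKM, the fourth rank.

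Photosystem genes filled much of the rest of the 30. PSBR and PSBO of photosystem II had 5533 ± 110 and 4522 ± 167 FPKM. PSAO, PSAH and PSAL of photosystem I had 5486 ± 203, 4106 ± 150 and 4013 ± 149 FPKM. Ferredoxin-1 (PETF), which carries electrons from photosystem I, had 5111 ± 235 FPKM, and a chloroplastic carbonic anhydrase (Ft3.1761), which interconverts carbon dioxide and bicarbonate, had 4837 ± 245 FPKM. The glycolate oxidase gene (Ft1.2821) of photorespiration had 3048 ± 79.4 FPKM.

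The other 6 of the 30 were not photosynthesis genes. TCTP (Ft8.2408), a conserved protein linked to growth, held the sixth rank with 8532, 8573 and 7835 FPKM. The dormancy-associated genes DRMH1 (Ft6.35) and homolog 3 (Ft3.3876) had 4464 ± 362 and 3240 ± 169 FPKM, and the polyubiquitin gene UBI11 (Ft5.2268), whose product tags proteins for degradation, had 3229 ± 54.9 FPKM. The other two had no description, symbol or pathway. They are Ft8.921, at the third rank with 15484, 15563 and 14562 FPKM and a coding length of 675 bases, and Ft8.920, at the ninth rank with 5425, 5328 and 4995 FPKM and a coding length of 690 bases. Their identifiers follow each other. Among the top 100 genes, 11 stood next in number to another of the 100, and all 11 shared their neighbour's family or its lack of a description: RBCS6, PSBR, plastocyanin (PETE), Ft8.920 and Ft8.921, and 3 antenna genes (Ft8.5183, Ft8.5184, Ft8.5185).

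**Figure D2:**
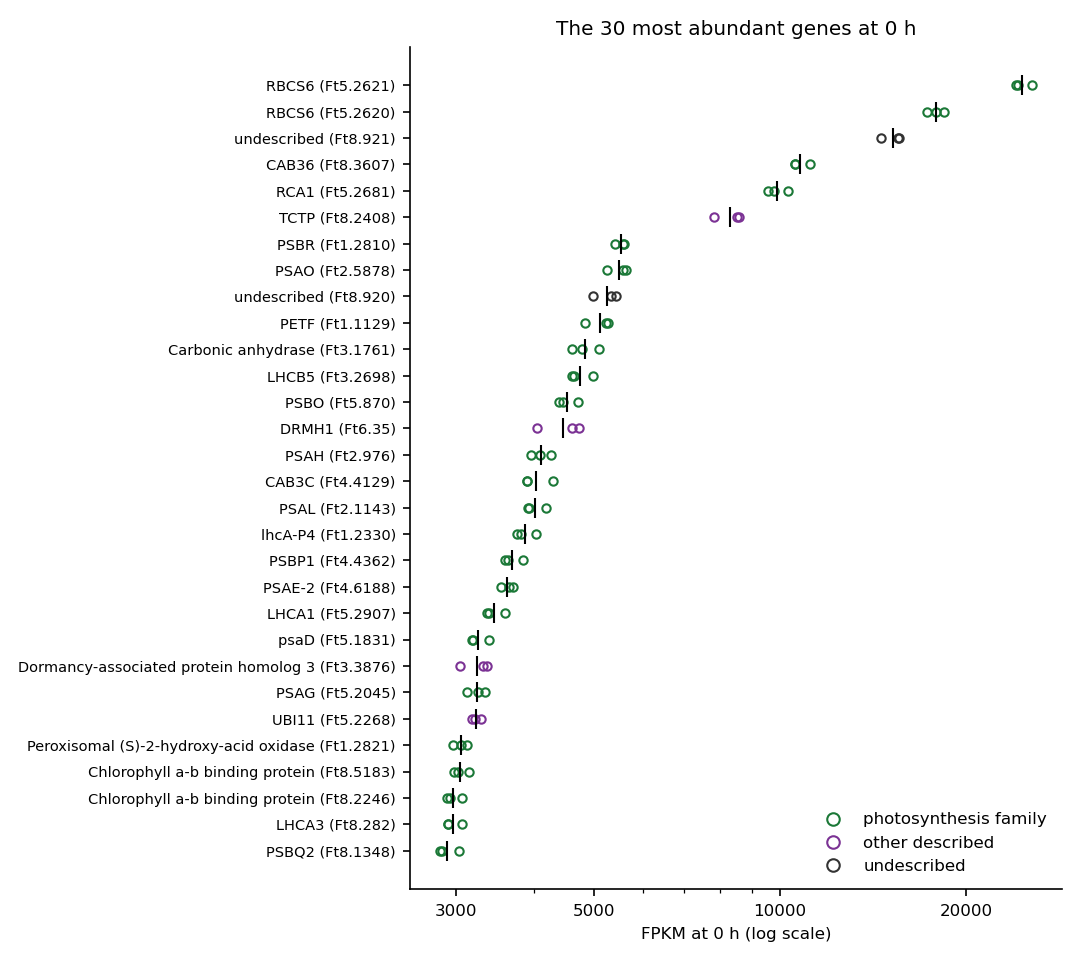
FPKM (horizontal axis, log scale) of the 30 genes of highest mean at 0 h; circles are the 3 control libraries, the vertical stroke is their mean, and colour separates photosynthesis families, other described genes and undescribed genes. The list runs from 24587 FPKM (RBCS6, Ft5.2621) to 2901 FPKM (PSBQ2), and the gene ranked next below it had 2857 FPKM.

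The order of these genes was close to the same in each library, and 10 of the 30 held the same rank in all 3. Replicate 3 stood apart in 1 respect. It had the highest level of the 3 libraries for 21 of the 24 photosynthesis genes of the top 30, and the lowest for all 6 others. Over all 125 expressed photosynthesis genes it was highest for 81, against 5876 of all 18651 expressed genes. Over 275 expressed cytosolic ribosomal protein genes it was lowest for 213, against 7270 of the 18651. The differences were small: the photosynthesis families together held 18.8%, 19.0% and 20.1% of the mRNA in replicates 1, 2 and 3, and the cytosolic ribosomal proteins averaged 5.98 ± 0.181%. The labels give no batch or position for this library, and what sets it apart was not tested.

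The 54 described families took up 2946 genes and 35.8% of the mRNA. Described genes outside all families gave 45.1%, 12 further families grouped after abundant genes were seen gave 3.58%, and undescribed genes gave 15.5%. By the pathway names deposited with 5657 genes, the leading entries were photosynthesis (133 genes, 6.65 ± 0.219% of the mRNA), ribosome (377 genes, 6.601 ± 0.162%), carbon fixation (95 genes, 5.90 ± 0.192%), glyoxylate and dicarboxylate metabolism (81 genes, 5.55 ± 0.178%) and antenna proteins (20 genes, 4.56 ± 0.199%). A gene can stand in several of these pathways.

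The 10 photosynthesis families were the most concentrated part of the mRNA, with 19.3 ± 0.693% of it from 139 genes, of which 125 were expressed. The antenna proteins, which bind chlorophyll and pass light energy to the photosystems, gave 4.56 ± 0.199%. All 20 antenna genes were expressed, 13 of them at 1000 FPKM or more and 19 at 100 FPKM or more, and 5 genes sufficed for 50% of the family. The lowest, LHCB7 (Ft8.4323), had 35.3 FPKM. Photosystem I subunits gave 2.91 ± 0.102%, with 11 of 13 genes at 1000 FPKM or more. The 2 remaining genes of that family are copies of PSAF, a subunit near the docking site of plastocyanin: Ft8.1022 had 6.93 FPKM and Ft3.2488 had no count, while Ft8.1121 and Ft8.1114 had 1687 and 1040 FPKM. Photosystem II subunits gave 2.62 ± 0.0731%, from PSBR at the top to PSBT (Ft2.2195) with 5.05 FPKM.

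The Calvin cycle enzymes other than Rubisco gave 1.26 ± 0.0470%. GAPA (Ft4.845), of the reducing step of the cycle, had 2761, 2819 and 2980 FPKM, and the plastid aldolase FBA2 (Ft6.3384) had 2557, 2628 and 2826 FPKM, so the values of these 2 genes overlapped. Photorespiration, which recycles the product of Rubisco's reaction with oxygen, gave 0.946 ± 0.0227%, led by glycolate oxidase and the aminotransferase AGT1 (2496 FPKM). Chlorophyll synthesis gave only 0.231 ± 0.0115%. Its main gene, CRD1 (Ft5.1640), which closes the fifth ring of chlorophyll, had 1149 ± 64.2 FPKM, against 390 FPKM for the magnesium chelatase subunit CHLH.

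Genes described as organelle-encoded proteins were nearly absent from these libraries. There are 210 such genes, 169 of them on unplaced scaffolds, and together they had 1270 counts over the 3 control libraries. Of these, 100 had no count. The 12 genes described as Rubisco large subunit had 19 counts, and the 2 genes for the small subunit had 2614609. The 20 genes described as photosystem II protein D1 had 281 counts. The shares above therefore describe nuclear messages, and how messages made in the organelles were captured or counted was not tested.

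Translation was the second large block. The 293 genes for cytosolic ribosomal proteins gave 5.98 ± 0.181% of the mRNA, the highest share of any of the 54 families, and 275 were expressed. No single gene led: RPS28 (Ft2.3601) had 995, 1009 and 917 FPKM and RPS21 (Ft2.4987) had 1007, 965 and 903 FPKM, values that overlap, and the first was 1.5001% of its family. It took 62 genes to reach 50% of the family. Plastid and mitochondrial ribosomal proteins gave 0.965 ± 0.0231%, and translation elongation factors 0.434 ± 0.00601%. A pair of genes for elongation factor 1-alpha, which brings aminoacyl-tRNA to the ribosome, had 1127 ± 28.1 FPKM (Ft8.3652) and 1037 ± 19.7 FPKM (Ft4.2830).

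Housekeeping and structural families held 2.85 ± 0.0137% of the mRNA. Actin was led by ACT7 (Ft5.731) with 2280, 2304 and 2250 FPKM, 75.8% of the family, and a second ACT7 gene (Ft2.4863) had 268 FPKM. Among tubulins, subunits of microtubules, TUBA (Ft4.5991) had 924 ± 19.2 FPKM. Histones, which package DNA, gave 0.483 ± 0.00707%, with an H3.3 gene (Ft7.2630) at 1227 ± 30.01 FPKM. Proteasome subunits, of the complex that degrades tagged proteins, gave 0.301 ± 0.00200% from 58 expressed genes of 61, the main one (PAC1) only 4.88% of the family. The 459 pentatricopeptide repeat genes, whose products bind organelle RNA, gave 0.226 ± 0.00294%, and 239 were expressed. They are the most numerous of the 54 families. Their sum was led by Ft8.106 with 476 ± 7.31 FPKM, while the median expressed gene had 4.40 FPKM.

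The 6 families grouped under stress held 2.66 ± 0.0283% of the mRNA in unstressed tissue. The main genes were the metallothionein Ft3.5077 (2275 ± 141 FPKM), a small metal-binding protein and 99.8% of its family, the chaperone HSC-2 (Ft2.2877, 1949 ± 36.0 FPKM), the plastid thioredoxin Ft3.5192 (1935 ± 48.7 FPKM), a redox regulator of chloroplast enzymes, the major latex-like protein gene MLP423 (Ft6.10, 1758 ± 24.9 FPKM), and the catalase CAT2 (Ft5.1552, 1426 ± 51.3 FPKM), which removes hydrogen peroxide. Late embryogenesis abundant proteins and dehydrins, known from drying seeds and water-stressed tissue, were counted outside these 6 families. They gave 0.142 ± 0.00327%, with 7 of 15 genes expressed. Their main gene, Ft8.2172, had 646, 645 and 618 FPKM, and the second, LEA5 (Ft6.1647), had 340, 354 and 318 FPKM.

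Aquaporins, channels for water, gave 1.09 ± 0.0187%, with 30 of 41 genes expressed. The top 2 were tonoplast intrinsic proteins, which sit in the vacuole membrane: TIP1-3 (Ft6.668) with 2388, 2409 and 2400 FPKM, and TIP1-1 (Ft6.205) with 1648, 1732 and 1813 FPKM. Among sugar transporters the main genes were SWEET14 (Ft5.761, 285 ± 4.52 FPKM) and a sucrose transporter (Ft3.2800, 237 ± 9.38 FPKM). A second gene of the same name, SWEET14 (Ft5.554), had 0.0576, 0.228 and 0.0857 FPKM. In the wall, EXPA8 (Ft1.760), an expansin that loosens growing walls, had 711 ± 9.18 FPKM, 69.4% of its family, and XTH22 (Ft7.3553), which cuts and rejoins xyloglucan, had 724, 641 and 600 FPKM. CESA1 (Ft3.4335), of primary-wall cellulose synthesis, had 121 ± 2.59 FPKM. Laccases, which can oxidise lignin precursors, gave 0.00720%, and 5 of their 25 genes were expressed. LAC14 (Ft1.512) alone was 68.8% of that.

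The 8 phenylpropanoid and flavonoid families held 0.271 ± 0.00415% of the mRNA, with 117 of 228 genes expressed. Chalcone synthase, which builds the flavonoid skeleton, was the highest step, with 445, 418 and 403 FPKM summed over 10 genes. Its main gene CHS (Ft3.2401) had 284, 269 and 252 FPKM and the second, CHS (Ft5.2370), had 87.5, 83.1 and 75.0 FPKM. Flavonoid 3'-hydroxylase, which adds the hydroxyl group that quercetin carries, followed with 225 ± 5.86 FPKM over 8 genes, and cinnamate 4-hydroxylase had 184 ± 4.91 FPKM over 9 genes. Flavanone 3-hydroxylase, which makes dihydroflavonols, had 185, 162 and 170 FPKM, values that overlapped with those of cinnamate 4-hydroxylase. Dihydroflavonol reductase, which draws on the same dihydroflavonols for anthocyanidins, had 158, 157 and 159 FPKM, all below the values of flavanone 3-hydroxylase.

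Lower in the order stood phenylalanine ammonia-lyase, the entry step, with 122 ± 1.14 FPKM over 4 genes, all of them expressed, and chalcone isomerase with 86.6 ± 2.63 FPKM. Anthocyanidin reductase (68.5 ± 2.07 FPKM) and flavonol synthase (61.1 ± 1.57 FPKM) came next. Flavonol synthase makes the flavonols from which rutin derives, and 2 consecutive genes, FLS (Ft5.635) and FLS (Ft5.634), had nearly the same level, 24.0, 23.7 and 25.1 FPKM against 23.0, 22.6 and 25.1 FPKM. 4-coumarate CoA ligase had 49.0 ± 2.90 FPKM. Leucoanthocyanidin reductase was the lowest of the 12 steps, with 14.4 ± 0.915 FPKM.

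Several of these steps rested on 1 gene. Chalcone isomerase CHI (Ft5.2894) had 89.0, 83.5 and 86.8 FPKM, 99.9% of its step, and the other CHI gene (Ft6.2359) had 0.111 FPKM. DFR (Ft4.5802) gave 99.8% of the dihydroflavonol reductase step, where 5 of 7 genes had no count. The rhamnosyltransferase gene RT (Ft4.2408) gave 92.3% of the anthocyanidin glycosyltransferase step. Phenylalanine ammonia-lyase was shared by PAL (Ft6.641, 62.9 ± 0.432 FPKM) and PAL3 (Ft5.1292, 31.02 ± 1.63 FPKM). Of the 150 UDP-glycosyltransferase genes, which attach sugars to flavonoids and many other compounds, 73 were expressed, led by UGT75C1 (Ft7.3088, 201 ± 1.41 FPKM) and UGT84A13 (Ft2.5137, 148 ± 4.70 FPKM).

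**Figure D3:**
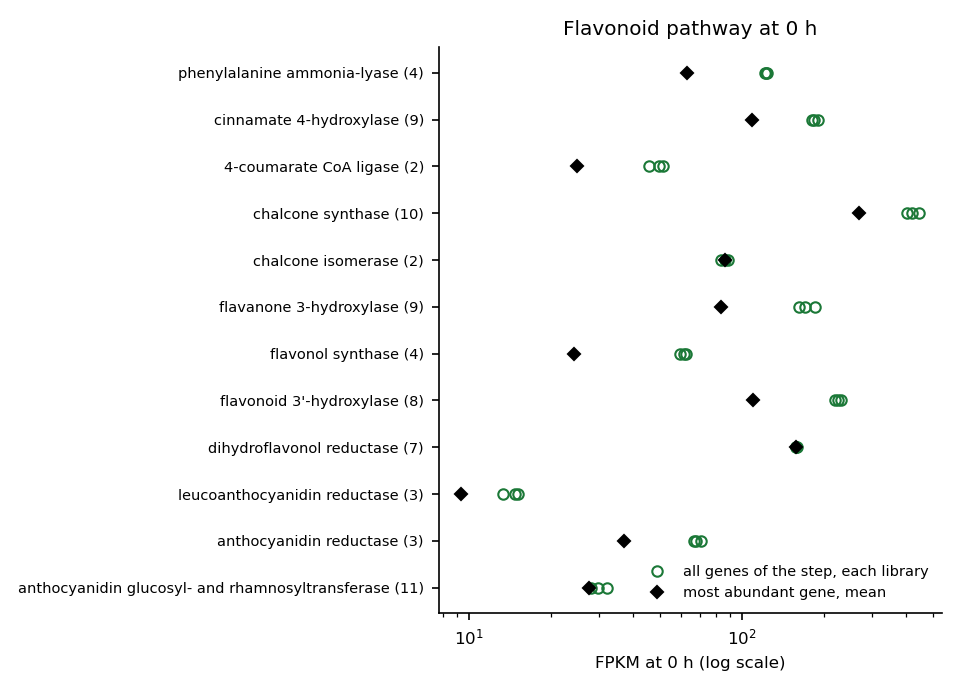
FPKM at 0 h (horizontal axis, log scale) for 12 steps of the flavonoid pathway, with the number of genes in brackets; circles are the summed FPKM of the step in each control library and the diamond is the mean of its most abundant gene. Chalcone synthase is the highest step (422 FPKM on average) and leucoanthocyanidin reductase the lowest (14.4 FPKM), and the diamond meets the circles where 1 gene gives nearly all of the step.

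Transcription factors and clock genes were many and low. The 8 families held 624 genes, 389 of them expressed, and 1.07 ± 0.0115% of the mRNA. MYB factors, the class that includes regulators of flavonoid genes, gave 0.145 ± 0.00230%, with 66 of 148 genes expressed and 14 without a count. Their main gene was MYB1R1 (Ft1.2352) with 216, 225 and 222 FPKM, then MYB48 (Ft2.3126) with 183, 174 and 152 FPKM. The median expressed MYB gene had 11.7 FPKM. The main AP2/ERF gene was RAP2-3 (Ft7.5146, 326 ± 12.4 FPKM), the main bHLH gene BHLH160 (Ft1.1871, 319 ± 6.65 FPKM), the main NAC gene NAC083 (Ft5.1269, 190 ± 9.31 FPKM) and the main HD-ZIP gene HAT5 (Ft7.4236, 186 ± 8.99 FPKM). WRKY44 (Ft2.5660) and WRKY24 (Ft2.5314) were level, with 75.9, 76.8 and 77.7 FPKM against 77.4, 73.8 and 75.8 FPKM.

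Among 16 clock genes, the 2 genes for LHY, a repressor that peaks around dawn in other plants, were the highest. LHY (Ft5.2081) had 601, 605 and 607 FPKM, and LHY (Ft7.3783) had 209, 203 and 209 FPKM. GIGANTEA (GI, Ft5.1410), a gene of later hours in the day in Arabidopsis, had 99.0 FPKM, and APRR1 (Ft1.2292), an evening gene there, had 4.14 FPKM. In the PEG libraries LHY (Ft5.2081) averaged 172, 28.8 and 1.51 FPKM at 2, 4 and 8 h, and APRR1 averaged 20.8, 32.2 and 70.6 FPKM. The labels give no hour of harvest and list no untreated library beyond 0 h. Time of day and duration of PEG therefore cannot be told apart in any comparison with the PEG libraries.

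Over the 54 families, the main paralogue held between 1.5001% and 99.9% of the family's FPKM. In 13 families it held at least 50%, and in 28 it held less than 25%. Beside the families named above, the expansins, carbonic anhydrases (59.2%) and polyubiquitins (94.7%) were of the first kind. Transcription factor families were of the second, apart from the clock genes: the median main share over the 8 was 13.6%. All 3 control values of the main gene lay above all 3 of the second in 50 families. The 4 exceptions were the Calvin cycle enzymes, the cytosolic ribosomal proteins, the WRKY factors and the class III peroxidases, where Peroxidase 4 (Ft6.1742) had 102, 94.7 and 88.8 FPKM and PER12 (Ft5.2312) had 90.003, 84.5 and 83.0 FPKM. Without division by length, 45 of the 54 main genes stayed the same. Genes of nearly identical sequence may share reads, and how reads that match several genes were assigned is not given in the sources used here. Sequences were not compared, so the split within the neighbouring pairs is uncertain.

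**Figure D4:**
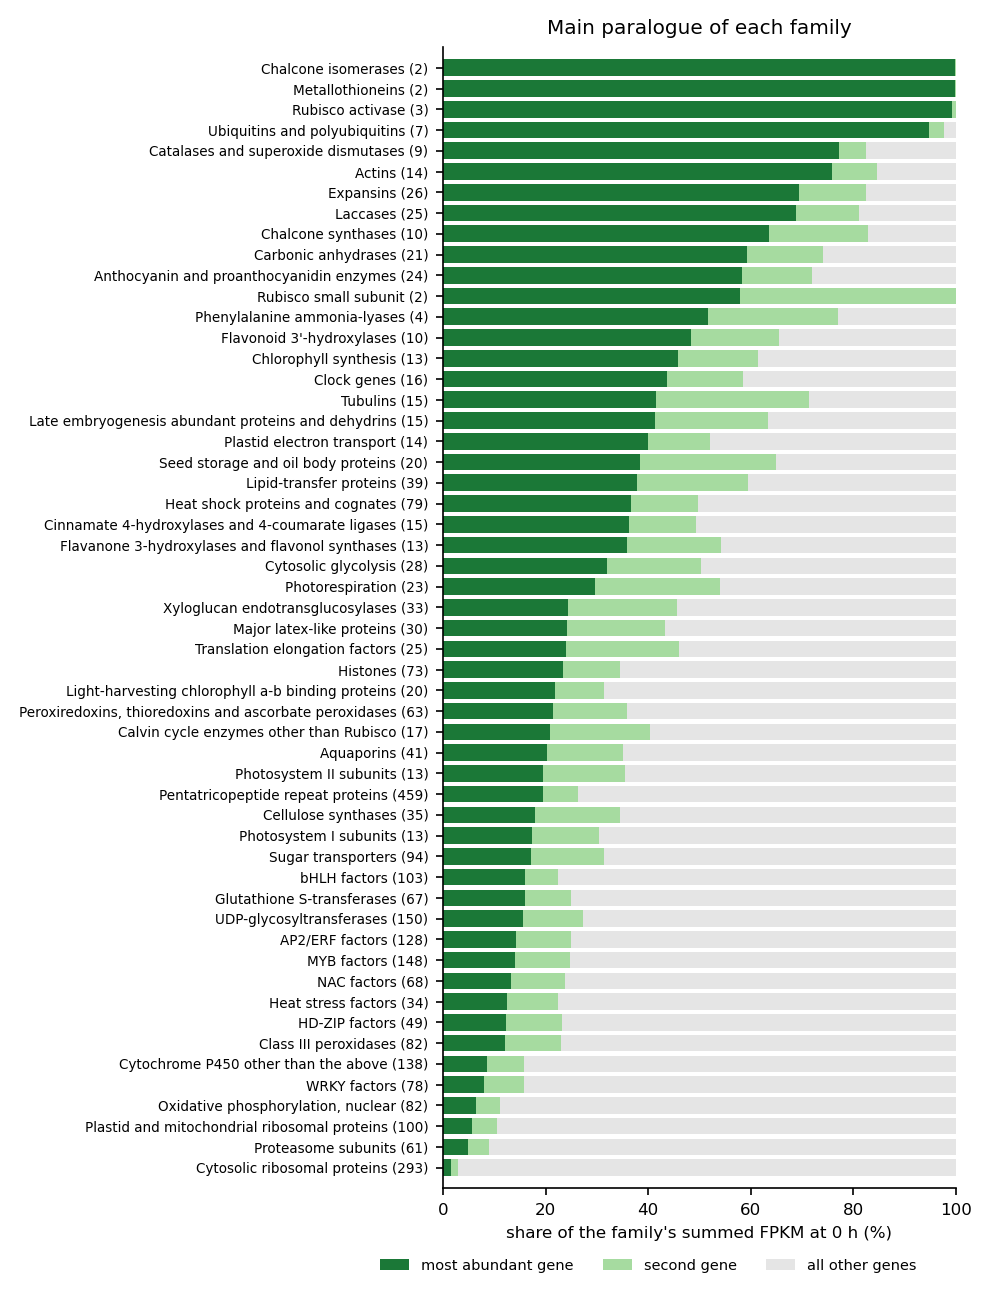
Share of each family's summed FPKM at 0 h (horizontal axis, percent, mean of the 3 control libraries) held by its most abundant gene, its second gene and all other genes, for 54 families with their number of genes in brackets. The dark bar runs from 99.9% (chalcone isomerases) to 1.5001% (cytosolic ribosomal proteins).

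Undescribed genes were 6593 of 26750 (24.6%) and gave 15.5% of the mRNA (15.3% to 15.7% per library), so they were less abundant per gene than described ones. Of these, 3933 (59.7%) were expressed, against 73.0% of described genes, and their median coding length was 696 bases when expressed, against 1219.5 bases for expressed described genes. The 5 most abundant, Ft8.921, Ft8.920, Ft5.2966 (2857 ± 103 FPKM), Ft8.2496 (2425 ± 138 FPKM) and Ft2.3967 (1335 ± 39.5 FPKM), gave 2.50% of the mRNA. Of the top 100 genes, 13 had no description.

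The 1524 genes without a count at 0 h had at least 1 count in a PEG library, as every gene in the table has in some library. For 1050 of them, the 9 PEG libraries together held 3 counts or fewer, and for 22 they held 100 or more. Only 18 reached 1 FPKM in all 3 libraries of a PEG group. A count of 0 in 1 library allows a level of up to 0.0802 to 0.0811 CPM (3 counts, counting error only). These genes were short, with a median coding length of 732 bases against 1116 bases for expressed genes, and 56.7% were described, against 78.9% of expressed genes. By family, they included 9 of 24 anthocyanin and proanthocyanidin genes, 9 of 82 class III peroxidases, 14 of 148 MYB genes, 4 of 128 AP2/ERF genes and none of 78 WRKY or 34 heat stress factor genes. The share without a count was 5.70% over all genes and 4.29% over described genes, from which the families were made.

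Among described genes without a count at 0 h, those highest in PEG were a defensin D2 gene (Ft7.4519), which averaged 0.0812, 6.32 and 73.6 FPKM at 2, 4 and 8 h, a senescence and dehydration-associated gene (Ft3.1167) with 0.958, 3.40 and 11.8 FPKM, and BGLU17 (Ft7.829), whose 4 h libraries were uneven with 39 to 678 counts. The others were an amine oxidase gene (Ft8.3787), the defensin-like gene LCR76 (Ft7.4520), next in number to the first, and DREB2D (Ft5.3003), a factor of the dehydration response. Against a floor of 3 counts over the control group (0.0269 CPM), Ft7.4519 was at least 641-fold lower at 0 h than at 8 h, and DREB2D at least 152-fold lower. They were chosen for this contrast, so these values are a description.

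The control libraries were close to each other. Spearman correlations of FPKM across genes were 0.9939 to 0.9941, and over 11877 genes with a mean of at least 10 FPKM the median coefficient of variation was 4.35%. It exceeded 20% for 65 of these genes. The 5 most variable were the undescribed genes Ft2.6105 (14.98, 19.8 and 32.6 FPKM), Ft7.2409 (6.62, 14.3 and 10.5 FPKM) and Ft4.621 (19.8, 13.1 and 10.8 FPKM), CYP21-4 (Ft4.3999), a prolyl isomerase with 28.4, 28.5 and 50.5 FPKM, and FRAA3 (Ft4.4684), a relative of strawberry allergen Fra a, with 12.3, 23.3 and 23.0 FPKM. In Ft2.6105 and CYP21-4 the high library was replicate 3.

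Which of these properties belonged to the control libraries and not to the series as a whole was asked by setting them against the 9 PEG libraries. Of 22063 tested genes, 15924 (72.2%) differed between 0 h and the mean of the 3 PEG times, 7966 higher at 0 h (36.1%) and 7958 lower (36.1%), by edgeR's quasi-likelihood test at an adjusted p under 0.05. With a change of at least 2-fold, 5026 genes were called. The families were defined by description and not by level, so their transcript shares were tested too, by an exact two-sided permutation of the 12 libraries (220 splits, smallest possible p 0.00455). Of the 54 families, 29 differed (53.7%), 19 with a higher share at 0 h (35.2%) and 10 with a lower one (18.5%), after Benjamini-Hochberg adjustment over the 54. A share is relative: when a large block is higher, the others are lower without any change of their own.

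All 10 photosynthesis families had a higher share at 0 h, and together they held 18.8% to 20.1% of the mRNA at 0 h and 3.94% to 11.8% in PEG. Antenna proteins held 4.56 ± 0.199% at 0 h, against 2.62%, 2.19% and 0.524% at 2, 4 and 8 h (adjusted p = 0.00982, exact permutation test, also for the next 4 families named). The Rubisco small subunit held 3.91 ± 0.143%, against 2.41%, 1.51% and 0.772%, and Rubisco activase 0.917 ± 0.0376%, against 0.366%, 0.136% and 0.0186%. Aquaporins (1.09 ± 0.0187%, against 0.847%, 0.438% and 0.426%) and expansins (0.0945 ± 0.00159%, against 0.0602%, 0.0354% and 0.0486%) were higher at 0 h as well. Photorespiration was higher with an adjusted p of 0.0175 in the exact permutation test, and this call was lost without any 1 of the 3 control or the 3 PEG 8 h libraries (adjusted p = 0.0716 to 0.109). By edgeR, 20 of 20 antenna genes and 13 of 13 photosystem II genes were higher at 0 h, against 36.1% of all tested genes. Their median log2 differences were 1.49 and 0.93, against -0.01 over all tested genes. Some other families were mixed: 10 of 14 plastid electron transport genes were higher and 4 lower, and of 17 Calvin cycle genes 12 and 3. Of 16 carbonic anhydrases tested, 12 were higher and 2 lower, of 32 aquaporins 20 and 7, and of 18 expansins 9 and 5. Actins and clock genes also had a higher share at 0 h (adjusted p = 0.00982, exact permutation test). Even so, 9 of 14 actin and 10 of 15 clock genes tested were lower.

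The 10 families with a lower share at 0 h were led by late embryogenesis abundant proteins and dehydrins, with 0.142 ± 0.00327% at 0 h, against 0.793%, 0.895% and 0.904% at 2, 4 and 8 h (adjusted p = 0.00982, exact permutation test). Heat stress factors (0.0444 ± 0.00113%, against 0.142%, 0.127% and 0.129%), NAC factors (0.133 ± 0.00221%, against 0.309%, 0.320% and 0.222%) and AP2/ERF factors (0.212 ± 0.00272%, against 0.373%, 0.332% and 0.319%) had the same adjusted p. So did MYB factors (0.145 ± 0.00230%, against 0.173%, 0.178% and 0.179%), WRKY factors, proteasome subunits, phenylalanine ammonia-lyases and seed storage proteins. HD-ZIP factors were lower with an adjusted p of 0.0175 in that test. By edgeR, 13 of 15 late embryogenesis abundant and dehydrin genes tested were lower at 0 h and 1 higher. Of 32 heat stress factors, 24 were lower and 5 higher, and of 58 proteasome genes 43 and 2. Phenylalanine ammonia-lyases were lower in 4 of 4, and of 13 seed storage genes 9 were lower and 3 higher. More mixed were NAC genes (37 of 58 lower, 15 higher), AP2/ERF genes (59 of 105 lower, 29 higher) and WRKY genes (37 of 72 lower, 22 higher). Over all tested genes, 36.1% were lower and 36.1% higher. MYB genes (43 of 108 lower, 25 higher) were near that background. Of 46 HD-ZIP genes, 18 were lower and 16 higher, with a median log2 difference of 0.0062, and the gene HOX22 (Ft7.3765), not among the 2 most abundant of the family at 0 h, averaged 971, 1117 and 1832 FPKM at 2, 4 and 8 h.

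The other 25 families did not pass. The cytosolic ribosomal proteins held 5.98 ± 0.181% at 0 h, against 6.08%, 4.13% and 6.03% (adjusted p = 0.481, exact permutation test), and their range in PEG enclosed the control values. Even so, by edgeR 221 of their 277 tested genes were higher at 0 h than the mean of the 3 PEG times, and 12 lower. Over all tested genes 36.1% were higher and 36.1% lower. The median log2 difference of the family was 0.20. That mean includes 4 h, the only time at which the family share was well below the control. Chalcone synthases held 0.0389 ± 0.00190% at 0 h, against 0.0473%, 0.0427% and 0.0819% (adjusted p = 0.192, exact permutation test). All 3 control shares lay below all 9 PEG shares here, but the 8 h libraries stood far above the other PEG libraries.

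**Figure D5:**
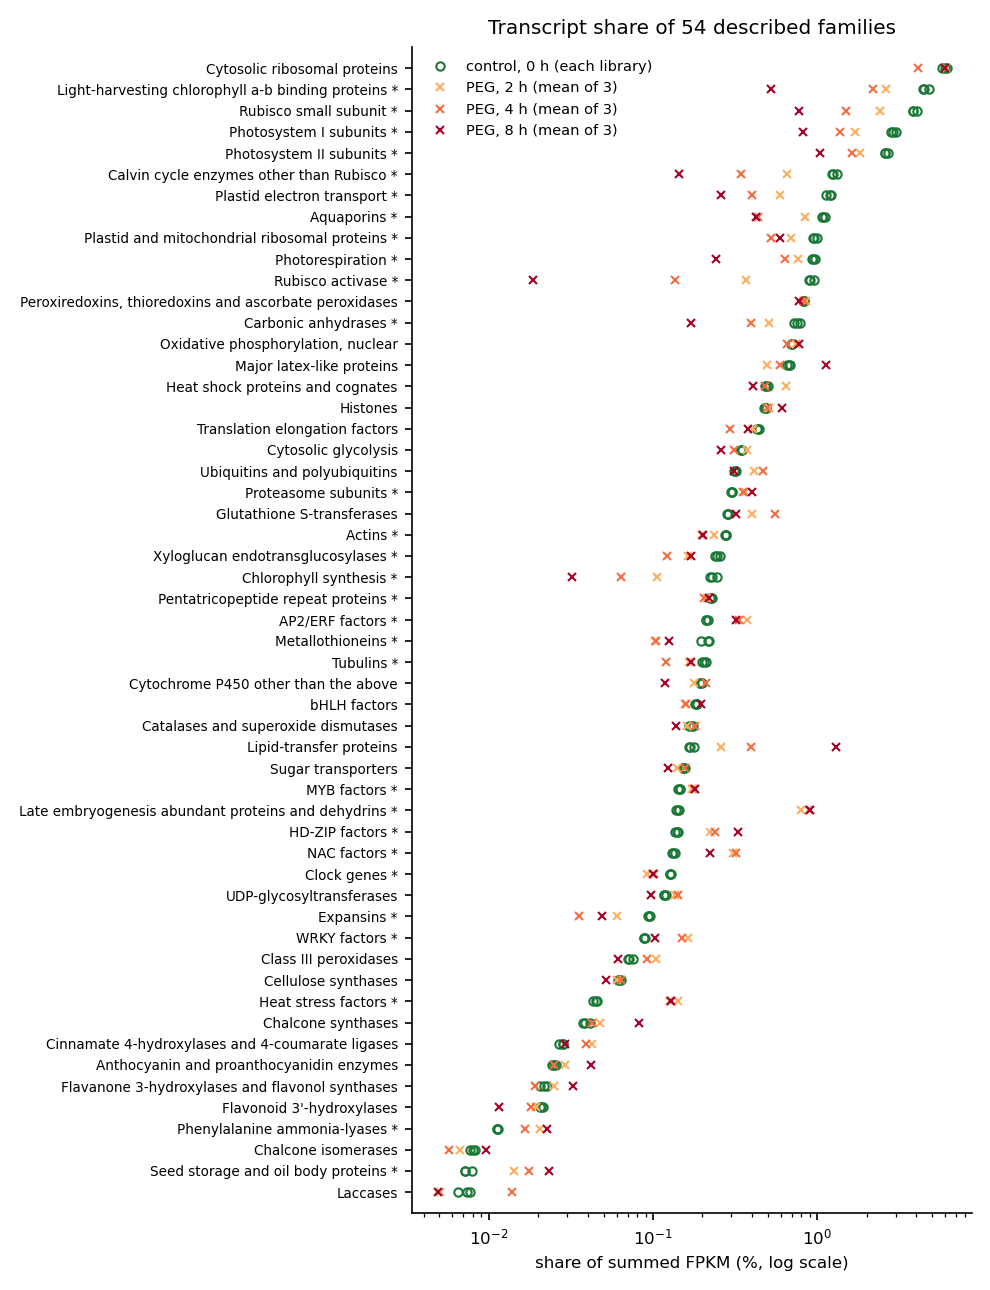
Transcript share (percentage of summed FPKM, horizontal axis, log scale) of 54 described families; green circles are the 3 control libraries and crosses the means of 3 libraries at 2, 4 and 8 h in PEG, with an asterisk where the share differed between 0 h and PEG (adjusted p under 0.05, exact permutation test). Antenna proteins, the Rubisco small subunit and activase lie to the right at 0 h, and late embryogenesis abundant proteins and heat stress factors to the left.

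The identity of the main paralogue was compared as a description, since it was chosen at 0 h. The main gene at 0 h was also the main gene at 2 h in 40 of the 54 families, at 4 h in 35 and at 8 h in 30, and in 27 at every time. All 8 housekeeping families kept theirs (ACT7, UBI11, TUBA and GAPC among them). In the transcription factor families only bHLH did, with BHLH160. At 8 h the main AP2/ERF gene was ERF011 in place of RAP2-3 (489 against 219 FPKM at 8 h), and the main clock gene GI in place of LHY (361 against 1.51 FPKM). MYB306 stood first among MYB genes at 8 h, but level with MYB1R1 (198 against 197 FPKM). Of the 100 most abundant genes at 0 h, 74 were among the 100 most abundant at 2 h, 59 at 4 h and 43 at 8 h. Of the 18651 expressed genes, 17312 were expressed at all 4 times and 384 at none of the 3 PEG times, while 317 genes were expressed at every PEG time and not at 0 h.

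Genes that set unstressed tissue apart most were named by size of difference among described genes of at least 10 FPKM over the series. TPS8 (Ft3.1285), a sesquiterpene synthase gene, had 44.4, 46.2 and 50.8 FPKM at 0 h, and no PEG library exceeded 1.24 FPKM (log2 difference 8.43 ± 0.104, SE, adjusted p = 1.29e-40, edgeR). The next were CYP71B9 (Ft2.5772), with 49.4 ± 3.00 FPKM at 0 h and 10.1, 0.626 and 0 FPKM at 2, 4 and 8 h, LAC14 with 53.7 ± 5.03 FPKM at 0 h and 0.180, 0.0861 and 5.03 FPKM, a trypsin inhibitor gene (Ft2.138) with 101.1 ± 5.56 FPKM at 0 h and 1.22, 0.926 and 9.67 FPKM, and LHY (Ft5.2081). Their log2 differences lay between 4.98 and 7.12, and every control value was above every PEG value, as the rule asked. Over all tested genes, 19.9% had control values above, and 21% below, all PEG values.

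In the other direction stood ECP63 (Ft3.119), a late embryogenesis abundant protein gene, with 0.270, 0.374 and 0.197 FPKM at 0 h, against 52.2, 141 and 570 FPKM on average at 2, 4 and 8 h (log2 difference -9.12 ± 0.0747, SE, adjusted p = 3.69e-46, edgeR). STO-A (Ft2.5825), described as a hydroxysteroid dehydrogenase, had 0.256 ± 0.0926 FPKM at 0 h and 20.4, 90.1 and 721 FPKM at the 3 times. EDL3 (Ft7.3497), an F-box protein gene, had 1.12 ± 0.180 FPKM at 0 h and 368, 429 and 563 FPKM. DREB1B (Ft5.446), a factor of cold and dehydration responses, had 0.515 ± 0.141 FPKM at 0 h and 196, 168 and 208 FPKM. SWEET14 (Ft5.554) had 0.124 ± 0.0913 FPKM at 0 h and 28.3, 34.2 and 68.6 FPKM, while the main SWEET14 gene (Ft5.761) was among the most abundant sugar transporters at 0 h.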

How the data were processed

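RNA taken up in TRIzol was made into libraries with the VAHTS Universal V6 kit, per the labels' protocols. The submitters' processing notes list fastp, HISAT2, HTSeq and DESeq2, with no version. A build or annotation is not given in the sources used here. For this series the authors deposited raw counts and FPKM for 26750 genes in all 12 libraries, and every column matched a label. The FPKM deposited by the authors equal counts over library total and a length that is a multiple of 3 for all 22552 genes with enough counts to check, so it is called coding length.

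FPKM were compared as deposited, or as a percentage of the library's summed FPKM (1078568 to 1090782 in the control libraries). Counts were tested with edgeR 4.0.16 (R 4.3.3, limma 3.58.1): TMM, filterByExpr by group (minimum count 10, total 15), 1 quasi-likelihood fit of all 12 libraries, contrast 0 h minus the mean of the 3 PEG times, Benjamini-Hochberg adjustment over 22063 genes. Family shares were tested by exact permutation. Alternatives were DESeq2 1.42.0, its size factors, other filters, counted-read shares, other denominators, the replicate number as a block and leaving out each library. The code was tested on simulated data. Tables and figures used Python 3.11.15, pandas 2.3.3, numpy 2.4.6, scipy 1.17.1 and matplotlib 3.10.9.

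Named genes were the 30 of highest mean FPKM at 0 h, the top 2 of each family and pathway step, cell type markers, the 5 most variable genes of at least 10 FPKM, the 5 most abundant undescribed genes, the 6 genes without a count at 0 h that were highest in PEG, and the 5 largest differences in each direction. Other family members (PSAF, PSBT and antenna copies, CHLH, GI, APRR1, HOX22, ERF011, MYB306) were named after their values were seen. The members and lists were chosen with earlier results of these data known, and 12 families were added after abundant genes were seen and were not tested.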

Additional observations from a re-analysis of the deposited data

How the results depend on the processing

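The count of genes that differed between 0 h and PEG stayed between 15205 and 16327 under DESeq2 size factors, DESeq2 and other filters, and was 5026 with a 2-fold minimum, which sets aside small differences. With the replicate number as a block, edgeR called 15870 genes. Leaving out each library gave 15013 to 15898 calls. The number of families with a different share was 33 by counted reads, 29 without organelle-type genes, 31 without the 10 most abundant genes in the sum, 25 when permuted within replicate number, and 27 to 30 without each library. The block lost photorespiration, tubulins, HD-ZIP factors and pentatricopeptide repeat proteins, each with an adjusted p of 0.0582. Tubulins were also lost without control replicate 1 (adjusted p = 0.102, exact permutation test), and pentatricopeptide repeat proteins without control replicate 1 (0.0701) or 3 (0.102). Photorespiration was lost without each control and each PEG 8 h library (0.0716 to 0.109). Other families gained a call. Translation elongation factors passed by counted reads (adjusted p = 0.0158, exact permutation test), without the 10 most abundant genes (0.0164) and without each PEG 2 h library (0.0234). Glutathione S-transferases passed by counted reads (0.0230) and without each PEG 8 h library (0.0218 to 0.0226), and cinnamate 4-hydroxylases and 4-coumarate ligases by counted reads (0.0446), without each PEG 8 h library and without control replicate 1 or 3 (0.0117 to 0.0364). Cellulose synthases passed by counted reads (0.00944) and flavonoid 3'-hydroxylases without the 10 most abundant genes (0.0475). The 2 families that changed direction were not called: heat shock proteins by counted reads (0 h minus PEG 0.0458 percentage points), and laccases without PEG 4 h replicate 2 (1.53e-05) or 3 (2.92e-05), within a range of -0.00115 to 2.92e-05 without each library. The cause was not tested. The 10 genes named for their contrast kept direction and call in all 170 refits. Same-numbered libraries did not deviate together over all genes (correlations -0.0357 to 0.0277 over 18 pairs, 2 of 12 libraries closest to their own number). No pairing by number was therefore seen, but a small shared effect, or one in few genes, would not show in these correlations.

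The genes making up 50% of the mRNA numbered 1035 by counted reads, where length adds weight, and 628 to 638 without each control library. Expressed genes numbered 19741 at 0.5 FPKM, 14569 at 5 FPKM and 20609 at 10 counts, and 18784 to 18809 without each control library. Genes without a count numbered 1894 to 1962 without each control library, so absence at this depth depends on the number of libraries.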
